A study of Homo sapiens with 36 samples.

Results

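The microRNAs hsa-miR-374a-5p and hsa-miR-374b-5p were followed through 7 aneuploid human cell lines, as 2 of 509 mature miRNA names listed in the deposited tables. They were taken by name, and they were proposed because their levels had been seen to fall in the same contrasts described here. Their fold changes are therefore a description and not a test. The 36 small RNA libraries form 12 groups of 3, which are 7 aneuploid lines and 5 control groups. The parental cells are HCT116, near-diploid colorectal carcinoma cells, and RPE1, retinal pigment epithelium made immortal with hTERT, and an asterisk marks cells that also carry the H2B-GFP reporter. HCT116 5/4, with 4 copies of chromosome 5, was set against HCT116. HCT116* 3/3 c11 and HCT116* 8/3 c7, with 3 copies of chromosomes 3 and 8, were set against HCT116*. So was HCT116 18/3 c2, with 3 copies of chromosome 18, although the study lists it as made from HCT116 without H2B-GFP. RPE1 5/3 12/3, with 3 copies of chromosomes 5 and 12, was set against RPE1. RPE1* 21/3 and RPE1* 7/3, with 3 copies of chromosomes 21 and 7, were each set against an RPE1* group of their own, numbered 1 to 3 and 11 to 13 in the labels. The lines named c2, c7 and c11 are single clones after chromosome transfer. The study lists the gain of chromosome 12 in RPE1 5/3 12/3 as spontaneous, and further spontaneous gains in RPE1* 7/3. No line is described as gaining chromosome X.

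A miRNA is a short RNA cut from a hairpin precursor, and it guides repression of messenger RNAs that pair with its seed, the bases near its 5′ end. FTX is a long noncoding RNA gene of the X inactivation centre, and it hosts the hairpins of several miRNAs, miR-374a and miR-374b among them. Close relatives such as miR-374a, miR-374b and miR-374c come from different hairpins and differ by few bases.

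The mature sequences of hsa-miR-374b-5p and hsa-miR-374c-5p are shown because they decide whether reads of these names can be told apart, and hsa-miR-374a-5p is given by name only. Written 5′ to 3′ from RefSeq (GRCh38.p14), with the seed (bases 2 to 8) in capitals, they are as follows.
hsa-miR-374b-5p: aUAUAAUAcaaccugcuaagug
hsa-miR-374c-5p: aUAAUACAaccugcuaagugcu
The seeds of these miRNAs are not the same. The bulk of both sequences is shared, however, as the same letters show with the shared run of 20 bases in capitals.
hsa-miR-374b-5p: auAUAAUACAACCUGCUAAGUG
hsa-miR-374c-5p: AUAAUACAACCUGCUAAGUGcu
The run covers bases 3 to 22 of hsa-miR-374b-5p and bases 1 to 20 of hsa-miR-374c-5p, so that each has 2 bases of its own. The RefSeq hairpins MIR374B (72 bases) and MIR374C (70 bases) lie on opposite strands of the same DNA and overlap by 70 bases. A read trimmed at its ends could fit either name, and how such reads were divided is not given in the sources used here.

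By GENCODE 44 on GRCh37, the build of the mapping, MIR374A, MIR374B and FTX lie on the minus strand of chromosome X, so MIR374C, opposite to MIR374B, is antisense to FTX. MIR374A is at chrX:73507121-73507192 and MIR374B at chrX:73438382-73438453, with 68667 bases between them, and both lie inside FTX at chrX:73160270-73513409. MIR374A lies within the span of 64 of 79 annotated FTX transcripts and overlaps an exon of 0 of these, so it is intronic in each. MIR374B lies within the span of 49 of the 79 and overlaps an exon of 2 of them. Each has a close neighbour, since MIR545 ends 76 bases from MIR374A and MIR421 lies 85 bases from MIR374B.

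The tables give, for each miRNA, the mean of the normalised read counts of the 6 libraries of a comparison, and the log2 fold change between line and control, its standard error (SE) and an adjusted p-value, all computed by the authors with DESeq2. They hold no values of single libraries, so a spread between the 3 libraries of a group can be seen only through the SE, and the number of reads counted per library cannot be read from them, although the study's methods state a planned depth. The study's methods call the 3 libraries of a group biological replicates, and the labels do not say how they were grown. A miRNA was called lower at an adjusted p-value below 0.05, a log2 fold change of -0.6 or less and a mean of at least 10.

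hsa-miR-374b-5p was below control in 7 of 7 lines and was called lower in 5. These were the 4 HCT116 lines and 1 of 3 RPE1 lines. The log2 fold change was -1.12 (SE 0.17) in HCT116 5/4, where the line held 53.9% less than its control. HCT116 18/3 c2 had -0.78 (SE 0.11), HCT116* 3/3 c11 had -0.92 (SE 0.20) and HCT116* 8/3 c7 had -0.90 (SE 0.11). These 3 lines share the HCT116* control libraries, so they are not independent of each other. For HCT116 18/3 c2, the gain of chromosome 18 cannot be told apart from H2B-GFP or other differences between HCT116 and HCT116*. The same holds for its values of the other miRNAs. In RPE1* 21/3 the log2 fold change was -0.77 (SE 0.21). The lines in which it was not called were RPE1* 7/3, at -0.41 (SE 0.14), and RPE1 5/3 12/3, at -0.22 (SE 0.32). The 95% interval for RPE1 5/3 12/3 ran from -0.84 to 0.40, so no change and a fall as large as in HCT116 18/3 c2 are both inside it. The called lines rest on 3 of the 5 control groups.

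hsa-miR-374a-5p was also below control in 7 of 7 lines, but by less, and it was called lower in 1. In HCT116 5/4 its log2 fold change was -0.97 (SE 0.18), or 48.9% below control. In the lines on HCT116* it was -0.45 (SE 0.16) in HCT116 18/3 c2, -0.41 (SE 0.20) in HCT116* 3/3 c11 and -0.34 (SE 0.14) in HCT116* 8/3 c7. The RPE1 lines gave -0.53 (SE 0.20) in RPE1* 21/3, -0.35 (SE 0.20) in RPE1* 7/3 and -0.07 (SE 0.32) in RPE1 5/3 12/3. Among the uncalled lines, HCT116 18/3 c2 passed on the adjusted p-value from DESeq2 (0.0180) and fell short of the fold change limit. RPE1* 21/3, the nearest to that limit, had an adjusted p-value from DESeq2 of 0.0797, and HCT116* 8/3 c7 had 0.0559. On the inner side of the limit, the smallest called fall of hsa-miR-374b-5p was -0.77, and on the outer side RPE1* 7/3 had -0.41 with an adjusted p-value from DESeq2 of 0.0229. For both miRNAs together, the answer to whether they fell is that all 14 fold changes were negative, 6 of the 14 were called, and HCT116 5/4 was the line in which both were called.

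**Figure D1:**
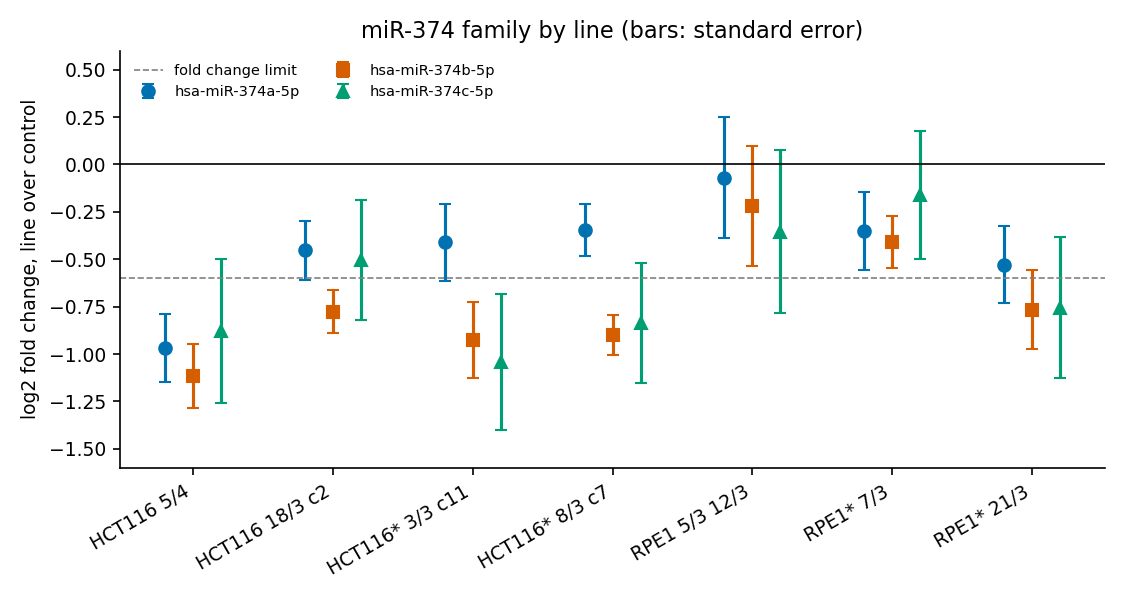
Log2 fold change of line over control (vertical axis) for hsa-miR-374a-5p (circles), hsa-miR-374b-5p (squares) and hsa-miR-374c-5p (triangles) in the 7 lines, with bars of 1 standard error and a dashed line at the fold change limit of -0.6. Every point lies below 0, from -1.12 to -0.07, and the 3 bars of RPE1 5/3 12/3 and that of hsa-miR-374c-5p in RPE1* 7/3 reach above 0.

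Calls of this kind were not rare. Of the miRNAs tested (mean of at least 10), the share called lower was 9.24% for HCT116 5/4, 9.29% for HCT116 18/3 c2, 3.58% for HCT116* 3/3 c11 and 5.46% for HCT116* 8/3 c7. The share was 13.5% in RPE1 5/3 12/3, 5.67% in RPE1* 7/3 and 4.76% in RPE1* 21/3. Nothing is read from these shares for miRNAs that were selected on the same contrasts. Counted from the lowest fold change, hsa-miR-374b-5p stood at place 16 of 249 for HCT116 5/4, 14 of 280 for HCT116 18/3 c2, 4 of 279 for HCT116* 3/3 c11 and 7 of 293 for HCT116* 8/3 c7. Its places among the RPE1 lines were 81 of 237 in RPE1 5/3 12/3, 42 of 247 in RPE1* 7/3 and 10 of 231 in RPE1* 21/3. hsa-miR-374a-5p stood further in, from place 25 in HCT116 5/4 to place 105 in RPE1 5/3 12/3. By the number of lines with a call, which is the value it was chosen on, hsa-miR-374b-5p with 5 lines was followed by 6 miRNAs with 3. Of 173 miRNAs tested in all 7 lines, 4 (2.31%) had a negative log2 fold change in each line, and 3 had a positive one. The 4 were hsa-miR-374a-5p, hsa-miR-374b-5p, hsa-miR-374c-5p and hsa-miR-18a-5p, a product of the miR-17-92 cluster.

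**Figure D2:**
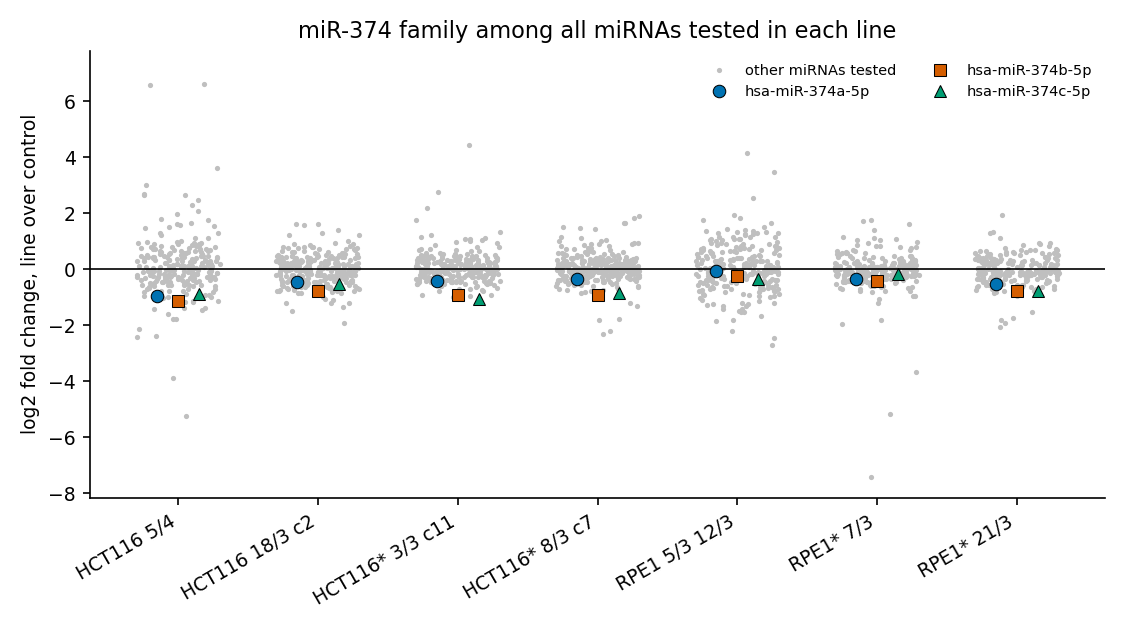
Log2 fold change of line over control (vertical axis) of each miRNA with a mean of at least 10 in each line (grey points, spread sideways for display), with hsa-miR-374a-5p (circle), hsa-miR-374b-5p (square) and hsa-miR-374c-5p (triangle) marked. The marked points lie below 0 in each line, and grey points lie beneath them in each line except HCT116* 3/3 c11, where hsa-miR-374c-5p is the lowest point.

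Of the 7 other names fixed for hairpins at the FTX locus, on either strand, only hsa-miR-374c-5p is listed in the tables, and it is listed in 7 of 7. The other 6 (hsa-miR-374a-3p, hsa-miR-374b-3p, hsa-miR-374c-3p, hsa-miR-421, hsa-miR-545-5p and hsa-miR-545-3p) are listed in 0 tables, and no level is given for them here. hsa-miR-374c-5p was called lower in 2 lines, HCT116* 3/3 c11 at -1.04 (SE 0.36) and HCT116* 8/3 c7 at -0.83 (SE 0.32). In HCT116* 3/3 c11 its fold change was the lowest of the 279 tested. Its other log2 fold changes were -0.88 (SE 0.38) in HCT116 5/4, -0.51 (SE 0.32) in HCT116 18/3 c2 and -0.76 (SE 0.37) in RPE1* 21/3. In RPE1 5/3 12/3 it was -0.35 (SE 0.43) and in RPE1* 7/3 it was -0.16 (SE 0.34). It was a rare miRNA, with a mean of 17.5 to 49.4 normalised counts, against 1553 to 3347 for hsa-miR-374b-5p and 162 to 1098 for hsa-miR-374a-5p. hsa-miR-374b-5p had 64.4 to 105 times its mean, and the log2 fold changes of these names differed by -0.13 to 0.27. With the shared run of 20 bases shown above, hsa-miR-374c-5p cannot be taken as a separate observation of the fall. Whether its reads came from hsa-miR-374b-5p was not tested. The seed of hsa-miR-374c-5p occurs in hsa-miR-374b-5p after a shift of 2 bases.

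Approximate levels in each group can be worked out from the mean and the fold change of a table. They were put on a common scale as parts per 1000000 (ppm) of the same quantity summed over the listed miRNAs. This takes the fold change as the ratio of the group means, which a fit with a replicate term need not give. That assumption could not be checked without values of single libraries, and the sums and ratios of levels below rest on it. Each table was normalised on its own, so levels from different tables are set side by side with no test. hsa-miR-374b-5p was highest in HCT116, at 1008 ppm, and HCT116 5/4 had 296. RPE1 had 500.3 and RPE1 5/3 12/3 had 280. RPE1* libraries 1 to 3 had 484 and RPE1* 21/3 had 309. HCT116* had 298 by the table of HCT116* 8/3 c7, and the lines set against it had 143 (HCT116 18/3 c2), 142 (HCT116* 3/3 c11) and 158 (HCT116* 8/3 c7). RPE1* libraries 11 to 13 were lowest of the controls at 156, and RPE1* 7/3 had 120. The order of the controls was thus HCT116, RPE1, RPE1* 1 to 3, HCT116* and RPE1* 11 to 13, in which RPE1 and RPE1* 1 to 3 were close and no spread over libraries can be given.

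hsa-miR-374a-5p followed the same order at lower levels. It had 336 ppm in HCT116 and 109 in HCT116 5/4. RPE1 had 123 and RPE1 5/3 12/3 had 76.3, and RPE1* libraries 1 to 3 had 120.4 and RPE1* 21/3 had 90.7. HCT116* had 32.9, and its lines had 19.8 (HCT116 18/3 c2), 22.6 (HCT116* 3/3 c11) and 25.6 (HCT116* 8/3 c7). RPE1* libraries 11 to 13 had 16.0 and RPE1* 7/3 had 12.8. In every table the line lay below its control, for hsa-miR-374a-5p and for hsa-miR-374b-5p.

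**Figure D3:**
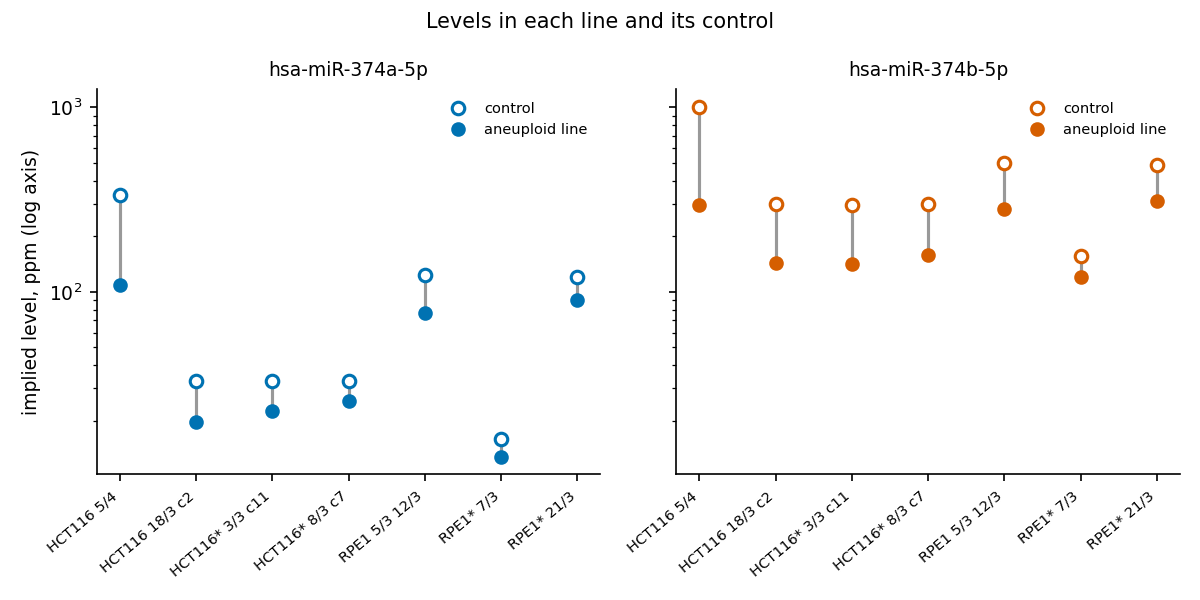
Implied level in ppm (vertical log axis) of hsa-miR-374a-5p (left) and hsa-miR-374b-5p (right) in each aneuploid line (filled circles) and in its control (open circles), joined by a grey line. The filled circle lies below the open one in each of the 7 tables, and the control levels of hsa-miR-374a-5p range from 16.0 to 336 and those of hsa-miR-374b-5p from 156 to 1008.

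On this scale the falls in HCT116 5/4 and RPE1 5/3 12/3 are larger than the listed fold changes, because the summed level of the line was 1.57 and 1.53 times that of its control in these tables. With line and control set to equal sums, hsa-miR-374b-5p in RPE1 5/3 12/3 came to -0.84 on the log2 scale and would be called, but 38.4% of tested miRNAs would then be called lower there, against 13.5% as listed. hsa-miR-374a-5p in HCT116 18/3 c2 came to -0.73 and would be called as well, where 23.6% would be called lower against 9.29% as listed. In HCT116* 8/3 c7, RPE1* 7/3 and RPE1* 21/3 the sums differed by less, and hsa-miR-374b-5p came to -0.92, -0.38 and -0.65. The direction was negative for both miRNAs in all 7 lines on either scale.

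The proportion between the miRNAs was not constant. Mean hsa-miR-374b-5p was 2.90 times mean hsa-miR-374a-5p in the table of HCT116 5/4, 3.88 times in that of RPE1 5/3 12/3 and 3.77 times in that of RPE1* 21/3. In the other tables it was 8.302 times (HCT116 18/3 c2), 7.83 times (HCT116* 3/3 c11), 7.77 times (HCT116* 8/3 c7) and 9.61 times (RPE1* 7/3). The first 3 tables are those for which the authors added a replicate term for sequencing batches, and the other 4 are those without it, with HCT116 and RPE1 lines in both sets. In control cells alone the ratio was 3.00 in HCT116, 4.08 in RPE1 and 4.02 in RPE1* libraries 1 to 3, but 9.05 in HCT116* and 9.78 in RPE1* libraries 11 to 13. The RPE1* groups are the same cells by their labels. Between them, hsa-miR-374a-5p differed by 7.53 times, at place 6 of 217 miRNAs from the highest, and hsa-miR-374b-5p by 3.09 times, at place 22, with a median ratio over all 217 of 1.14. HCT116 over HCT116* gave 10.2 times for hsa-miR-374a-5p (place 2 of 234) and 3.38 times for hsa-miR-374b-5p (place 27), and a median of 1.20. HCT116 over RPE1 gave 2.74 times for hsa-miR-374a-5p and 2.01 times for hsa-miR-374b-5p, near the median of 2.15. The part of library preparation, sequencing batch and culture in these ratios was not tested. H2B-GFP, which HCT116* carries and HCT116 does not, cannot be told apart from them for that pair. Nor can the source of the parental cells, which the study's list of cell lines gives as different for HCT116 and HCT116*.

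**Figure D4:**
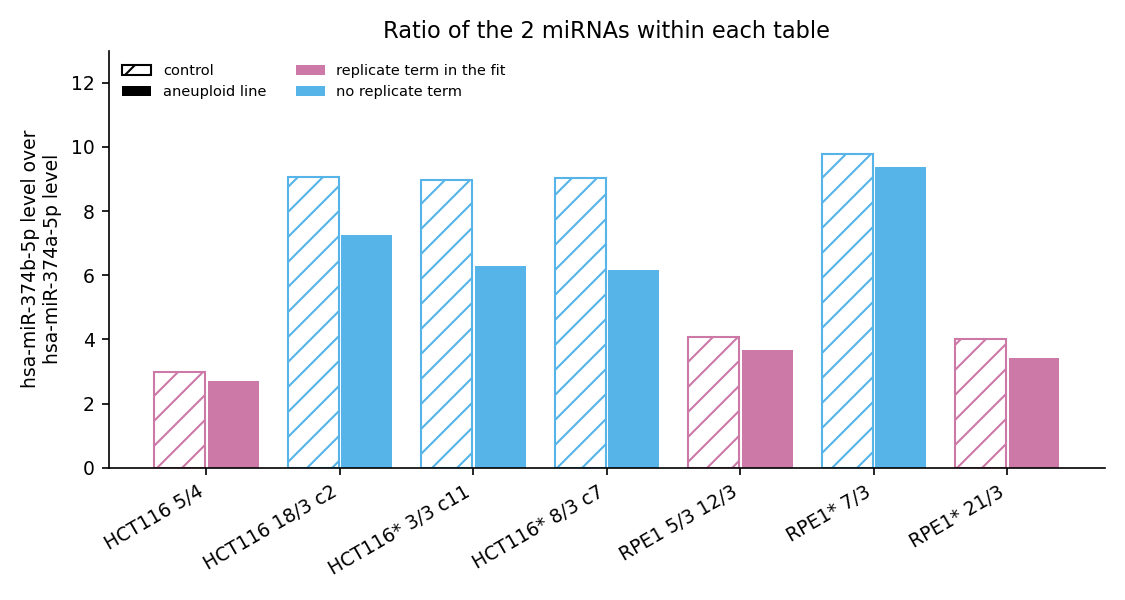
Level of hsa-miR-374b-5p over level of hsa-miR-374a-5p (vertical axis, a ratio) in the control (hatched) and the aneuploid line (filled) of each table, coloured by whether a replicate term was in the fit of that table. The ratio in controls is 3.00 to 4.08 in the 3 tables with the term and 8.98 to 9.78 in the 4 without it, and in each table the line has a lower ratio than its control.

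A fold change compares line and control inside 1 table. hsa-miR-374b-5p was called lower in 2 of 3 tables with the replicate term and 3 of 4 without. For hsa-miR-374a-5p the counts were 1 of 3 and 0 of 4. Counting error was worked out with the normalised level of a group taken as the reads counted in each of its 3 libraries. The SE of each fold change exceeded it by 3.64 to 15.5 times for hsa-miR-374b-5p and 1.75 to 7.92 times for hsa-miR-374a-5p. Under that assumption counting error was the smaller part of each SE. The reads counted per library are not known, so the assumption was not checked. The shared HCT116* control gave near-equal levels by the 3 tables that use it. They were 297, 294 and 298 ppm for hsa-miR-374b-5p and 32.8, 32.8 and 32.9 for hsa-miR-374a-5p. As these tables hold the same HCT116* libraries, near-equal levels were to be foreseen and do not measure replication.

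The fold change of hsa-miR-374a-5p was the less negative of the pair in all 7 lines. The difference on the log2 scale was 0.56 (SE 0.17) in HCT116* 8/3 c7, 0.51 (SE 0.28) in HCT116* 3/3 c11 and 0.32 (SE 0.19) in HCT116 18/3 c2, which share their controls. It was 0.15 (SE 0.24) in HCT116 5/4, 0.24 (SE 0.29) in RPE1* 21/3, 0.15 (SE 0.45) in RPE1 5/3 12/3 and 0.06 (SE 0.25) in RPE1* 7/3. These SEs take the miRNAs as independent, which libraries shared by both make unlikely. In 6 of the 7 lines the difference was under 2 such SEs, and it was larger in HCT116* 8/3 c7.

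The miRNAs whose fold changes lay nearest to the pair were found by the root mean square difference over the 7 lines, among 172 others with a mean of at least 10 in every table. Nearest to hsa-miR-374b-5p were hsa-miR-374c-5p (0.181 on the log2 scale), hsa-miR-374a-5p (0.334), hsa-miR-20b-5p (0.481), hsa-miR-106a-5p (0.513) and hsa-miR-18a-5p (0.554), where the median of all was 0.958. Nearest to hsa-miR-374a-5p were hsa-miR-18a-5p (0.241), hsa-miR-106a-5p (0.277), hsa-miR-20b-5p (0.293), hsa-miR-576-5p (0.316) and hsa-miR-374b-5p (0.334), with a median of 0.732. hsa-miR-374c-5p came in place 6 for hsa-miR-374a-5p, at 0.343. hsa-miR-20b-5p and hsa-miR-106a-5p, of the miR-106a-363 cluster, are placed on chromosome X, hsa-miR-18a-5p on chromosome 13 and hsa-miR-576-5p on chromosome 4. hsa-miR-18a-5p was below 0 in all 7 lines, at -1.01 in HCT116 5/4 and between -0.45 and -0.02 in the others. A measure of this kind favours miRNAs with small changes, and 3 of the lines share controls, so it describes these tables.

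The other miRNAs of chromosome X were called in both directions. Of the 509 names, 39 have all their loci on chromosome X by RefSeq. Over all miRNAs tested, the share called higher was 18.5% for HCT116 5/4, 8.93% for HCT116 18/3 c2, 6.09% for HCT116* 3/3 c11, 9.56% for HCT116* 8/3 c7, 16.9% for RPE1 5/3 12/3, 7.29% for RPE1* 7/3 and 3.90% for RPE1* 21/3. Without the miR-374 family, 2 were called lower and 7 higher of 25 tested in HCT116 5/4, 2 and 2 of 22 in HCT116 18/3 c2, and 4 and 1 of 23 in HCT116* 8/3 c7. In HCT116* 3/3 c11, 0 were called lower and 0 higher of 22 by DESeq2, and 7 were lower and 1 higher at an unadjusted p below 0.05. At that unadjusted limit, the counts lower and higher were 3 and 9 in HCT116 5/4 and 3 and 3 in HCT116 18/3 c2. They were 6 and 5 in HCT116* 8/3 c7, 9 and 3 in RPE1 5/3 12/3, 3 and 4 in RPE1* 7/3 and 2 and 2 in RPE1* 21/3. No share over all miRNAs tested is given at that limit, so nothing is read from these counts. In RPE1 5/3 12/3, where neither miRNA of the pair was called, 8 were called lower and 2 higher of 22, with a median log2 fold change of -0.63 against 0.07 over all miRNAs tested. In RPE1* 7/3 the counts were 3 and 1 of 21, and in RPE1* 21/3 they were 1 and 2 of 21. The median log2 fold change over these miRNAs was 0.01 in HCT116 5/4, -0.17 in HCT116* 8/3 c7, -0.15 in HCT116* 3/3 c11 and -0.01 in HCT116 18/3 c2. It was 0.15 in RPE1* 7/3 and -0.15 in RPE1* 21/3, where the medians over all miRNAs tested in these 6 lines lay between -0.06 and 0.04. hsa-miR-503-5p, a relative of the miR-16 family, was the other miRNA of chromosome X called lower in 3 lines or more, at -1.90 in HCT116 18/3 c2, -0.74 in HCT116* 8/3 c7 and -0.77 in RPE1 5/3 12/3, but it was called higher in HCT116 5/4 at 3.61. Since the levels are of mature miRNAs in bulk cultures, fewer cells with the miRNA and less of it per cell cannot be told apart.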

How the data were processed

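The 36 small RNA libraries were sequenced by the authors, trimmed with cutadapt, mapped to hg19 and counted per mature miRNA of miRBase with mirdeep2. The authors compared each line with its control by DESeq2 (version not given in the sources used here), with the replicate number as a further term, because of sequencing batches, in the tables of RPE1 5/3 12/3, HCT116 5/4 and also RPE1* 21/3.

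The deposited mean is a signal, namely the average over 6 libraries of counts that the authors had scaled by size factors. The deposited fold change is a log2 ratio of line over control, the deposited score is that ratio divided by its standard error, and the deposited p-value comes from the score by the normal distribution (two-sided), with Benjamini-Hochberg adjustment beside it. These relations were checked on the tables. As the tables hold no values of single libraries, no model could be fitted again, and the reads counted per library are not known from them. These are the authors' own comparisons and are used as such.

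The levels of control and line were computed as 2m/(1+2 to the power L) and that value times 2 to the power L, from mean m and log2 fold change L, then in parts per 1000000 of their sum. Calls used an adjusted p-value below 0.05, a fold change limit of 0.6 on the log2 scale and a mean of at least 10. The miRNAs and lists were chosen with earlier results of these data known. Named miRNAs are the pair, listed products of hairpins at the FTX locus and listed seed relatives, the 5 nearest to each of the pair, and miRNAs of chromosome X called lower in at least 3 lines. Of 509 names, 472 (92.7%) were placed on 1 chromosome by RefSeq (GRCh38.p14), and the coordinates printed are from GENCODE 44 on GRCh37. The alternatives were other limits, a t distribution, centring and rescaling. Scripts were tested on simulated data and ran with matplotlib 3.10.9, scipy 1.17.1, pandas 2.3.3 and numpy 2.4.6 under Python 3.11.15.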

Additional observations from a re-analysis of the deposited data

How the results depend on the processing

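The number of lines calling hsa-miR-374b-5p lower was 5 as listed, 6 with no fold change limit (RPE1* 7/3 added), 6 with line and control set to equal sums (RPE1 5/3 12/3 added), 1 with a limit of 1 (HCT116 5/4) and 2 with the score read against a t distribution with 4 degrees of freedom (HCT116 5/4 and HCT116* 8/3 c7, where 3.21% and 1.71% of all tested miRNAs were then called lower, while in the other 3 lines that had a call the share was 0% for all miRNAs). For hsa-miR-374a-5p it was 1 as listed, 2 with no fold change limit and 2 with equal sums (HCT116 18/3 c2 added in both), 0 with a limit of 1 and 0 with the t distribution applied to the DESeq2 scores. With no fold change limit, the share of all tested miRNAs called lower rose from 5.67% to 10.5% in RPE1* 7/3. In HCT116 18/3 c2 that share rose from 9.29% to 16.1%. With a limit of 1 the share in HCT116 5/4 was 6.02%. At an unadjusted p below 0.05, hsa-miR-374a-5p passed in 5 lines by the normal and 2 by the t distribution. For hsa-miR-374b-5p the counts were 6 and 6. No share of all miRNAs tested is given at that limit, and both miRNAs were chosen on these contrasts, so nothing is read from these counts. The same 4 degrees of freedom were used for every table. Tables fitted with the replicate term, that of HCT116 5/4 among them, leave fewer, so by this count the t distribution was too lenient there. Calls by the t distribution in these 3 tables could therefore be too many, and the call in HCT116 5/4 by it is not secure. This reason does not apply to the 4 tables without the term. Whether a t distribution suits scores from DESeq2 was not tested, so it could also be too strict. Fewer degrees of freedom were not tried. Adjusting again over tested miRNAs, centring each table on its median and a mean limit of 100 or none left both counts as they were. With equal sums the log2 fold changes moved down by 0.65 (HCT116 5/4), 0.62 (RPE1 5/3 12/3), 0.28 (HCT116 18/3 c2) and 0.13 (HCT116* 3/3 c11), the shift for RPE1* 21/3 was -0.12 and thus upwards, the share of miRNAs called lower in HCT116 5/4 went from 9.24% to 41.0%, and the fold changes ranged from -1.62 to -0.32 for hsa-miR-374a-5p and from -1.77 to -0.38 for hsa-miR-374b-5p. No fold change of the pair turned positive under centring or equal sums. With a mean of at least 100 in all tables, 3 of the 5 nearest miRNAs of hsa-miR-374a-5p and 2 of the 5 of hsa-miR-374b-5p were shared with the lists above, since hsa-miR-374c-5p and others are then not compared. No paired analysis was possible because the tables carry no values of single libraries, and for the same reason leaving out each replicate was not run.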
